A study of Mus musculus with 9 samples.

Results

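The kinesin genes described here are the 43 gene rows, of 32531 in all, whose symbol is Kif followed by a number, Kifc followed by a number, or Kifap3. Besides the motor genes they hold Kifap3, which encodes an associated subunit of kinesin-2, and 1 pseudogene, Kif4-ps. Kinesins are motor proteins that hydrolyse ATP to move along microtubules or to take them apart. Those of one group carry vesicles, organelles and RNA through the cell, most of them toward the plus end. Others build cilia, limit microtubule growth, or move chromosomes and close the cell in division. In the cerebral cortex the cargo kinesins are best known from axons and dendrites, where cargo travels far from the cell body, and brain endothelial cells use the same tracks over much shorter distances.

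The mice were untreated adults, and all 3 groups carried the transgene of line ES3026 (Abcb1a-EGFP/Rpl10a). RNA came from the cerebral cortex. TRAP, translating ribosome affinity purification, tags the ribosomal protein Rpl10a with EGFP in the cells where the driver of the line is active, here that of Abcb1a, a drug efflux pump of brain endothelium, and captures tagged ribosomes with antibodies against EGFP. There were 3 libraries of captured RNA extracted by investigator ES (ES IP), 3 of captured RNA extracted by investigator JL (JL IP) and 3 of total cortical RNA extracted by JL (JL input). Nothing in the labels ties replicates to separate animals, so p-values measure only the spread between these libraries, which may in part be technical.

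Gene counts ran from 31987470 to 46598478 per library. Levels are CPM, counts relative to the library's total after TMM scaling across the 9 libraries, listed for replicates 1, 2 and 3 in that order. The tissue and cell type labels were checked against 12 endothelial and 12 neuronal marker genes, none of them at 0 in any group. The endothelial markers summed to between 5706 and 6038 CPM in the JL IPs, 570 and 813 in ES IP, and only 25.8 and 33.0 in input. The neuronal markers summed to between 2015 and 2594 CPM in the JL IPs, 16452 and 18084 in ES IP, and 15465 and 16254 in input. The ES IPs, labelled as endothelial, therefore held both sets of markers, and their neuronal sum lay above that of every input. Per the file names, the ES libraries shared lane 6, and each JL IP shared its lane (4, 2 or 3) with the input of the same number. Y-linked Ddx3y had 660 to 1037 counts in the ES IPs, 2298 and 3249 in replicate 1 of the JL IPs and inputs, and at most 1 in the other JL libraries, so replicate 1 of JL did not come from the same animals as replicates 2 and 3.

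Sequences upstream of the 2 largest increases and of 2 of the 3 largest decreases in the JL IPs are shown first, because these genes carry much of the contrast within the family. RefSeq (GRCm38.p6) gave a start for 34 of the 43 genes, 38 starts in all. The 250 bases before the start are printed 5′ to 3′ on the gene's strand, with capitals for matches on either strand to the GC box (GGGCGG) and the TATA box (TATAAA). Overlapping matches run together, and the motifs were chosen after values were seen. The windows are chr12:112145958-112146207 (plus strand) for Kif26a, chr11:70700298-70700547 (plus) for Kif1c, chr15:91049952-91050201 (minus) for Kif21a and chr2:49619036-49619285 (plus) for Kif5c.
Kif26a: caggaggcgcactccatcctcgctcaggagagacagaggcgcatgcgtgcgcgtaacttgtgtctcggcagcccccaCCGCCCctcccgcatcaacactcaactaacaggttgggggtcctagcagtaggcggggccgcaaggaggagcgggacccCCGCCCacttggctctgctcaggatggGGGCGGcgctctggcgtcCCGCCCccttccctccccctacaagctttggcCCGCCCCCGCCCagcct
Kif1c: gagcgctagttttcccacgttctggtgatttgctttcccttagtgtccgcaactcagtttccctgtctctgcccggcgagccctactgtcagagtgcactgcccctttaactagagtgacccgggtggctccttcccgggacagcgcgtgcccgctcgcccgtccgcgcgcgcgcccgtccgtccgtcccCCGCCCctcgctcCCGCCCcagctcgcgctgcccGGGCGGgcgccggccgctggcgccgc
Kif21a: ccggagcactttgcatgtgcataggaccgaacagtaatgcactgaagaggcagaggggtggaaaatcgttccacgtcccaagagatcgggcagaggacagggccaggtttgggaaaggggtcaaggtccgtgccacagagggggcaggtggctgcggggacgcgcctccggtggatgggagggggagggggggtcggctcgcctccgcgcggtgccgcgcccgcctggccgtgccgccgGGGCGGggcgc
Kif5c: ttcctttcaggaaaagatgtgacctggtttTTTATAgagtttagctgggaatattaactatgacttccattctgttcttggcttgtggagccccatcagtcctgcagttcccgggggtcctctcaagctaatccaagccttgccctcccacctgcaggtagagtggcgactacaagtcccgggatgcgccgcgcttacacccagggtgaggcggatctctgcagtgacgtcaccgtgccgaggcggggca
The window of Kif26a held 6 GC box matches, that of Kif1c 3, that of Kif21a 1 and that of Kif5c none. Kif5c alone of the 4 had a TATA box match, on the opposite strand (TTTATA) and toward the end of the window far from the start. A GC box match was present in 21 of the 38 kinesin windows (55.3%) and in 32.7% of all 32851 windows of that length, and a TATA box match in 13.2% and 12.4%. A CCAAT box (CCAAT) was matched in 47.4% of kinesin windows and 33.8% of all, and the core of the ETS site (CCGGAA), read by a factor family of endothelium among others, in 23.7% and 12%. The kinesin windows had a median GC content of 63.2%, against 52.4% over all, and these shares move with base composition. None of the 4 windows shown held a CCAAT or ETS match. Other kinesin windows did not keep the order of GC box matches seen in these 4. Kif2a, lower in the JL IPs, had 9 and 4 matches before its 2 starts, and Kif1b, also lower, 4 and 3. Kif13a and Kif16b, both higher, had 2 each. The window of Kif6, the largest decrease, had 1 and is not shown. A link between matches and direction was not tested.

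Kinesin genes together made up 0.168% to 0.200% of gene counts in the JL IPs, 0.537% to 0.587% in the inputs and 0.50% to 0.767% in the ES IPs. Per kilobase of exon, the highest in the inputs were Kif5c (136 ± 5.03 CPM per kilobase; mean ± SD, n = 3, as below), Kif5a (123 ± 11.7) and Kif1a (83.2 ± 2.51). The libraries of Kif5c and Kif5a overlapped. In the JL IPs the order was Kif5a (31.4 ± 3.11), Kif5b (29.9 ± 4.27), Kif1c (22.2 ± 0.996), Kif1b (20.0 ± 2.62) and Kif1a (19.1 ± 9.19), and neighbours in it did not differ beyond their spread, except that every library of Kif5b lay above every library of Kif1c. Scaled to the longest transcript, Kif5b (39.6 ± 5.65) came before Kif5a (34.9 ± 3.46). The JL IPs also held neuronal markers, so the order and shares of kinesin genes in them need not be those of endothelial cells alone. In the ES IPs Kif5a (186 ± 51.0), Kif5c (167 ± 44.9) and Kif1a (109 ± 33.7) led, the 3 genes that led the inputs.

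The first comparison asked which kinesin mRNAs the JL IPs enriched over total cortical RNA. Of 43 kinesin genes, 37 passed the filter on low counts, and of these 9 were higher in the JL IPs, 20 lower and 8 did not pass (edgeR's quasi-likelihood test, adjusted p under 0.05 over all genes). Over all 17357 genes tested, 36.7% were higher and 37.4% lower. The test treated the libraries as unpaired, though each JL IP shared its lane with the input of the same number. A block by replicate number is among the alternatives given at the end. The median log2 fold change was -1.02 for the kinesin genes and -0.09 for all genes. All 3 JL IPs lay above all 3 inputs for 10 kinesin genes and below them for 20, where all genes gave 38.7% and 42.2%. At 2-fold or more, 7 kinesin genes were higher (24.1% of all genes) and 18 lower (28.9%). In bulk samples, fewer cells of a type and less RNA per cell cannot be told apart. The inputs held total RNA and the JL IPs RNA of captured ribosomes, so cell type and ribosome binding cannot be told apart either.

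**Figure D1:**
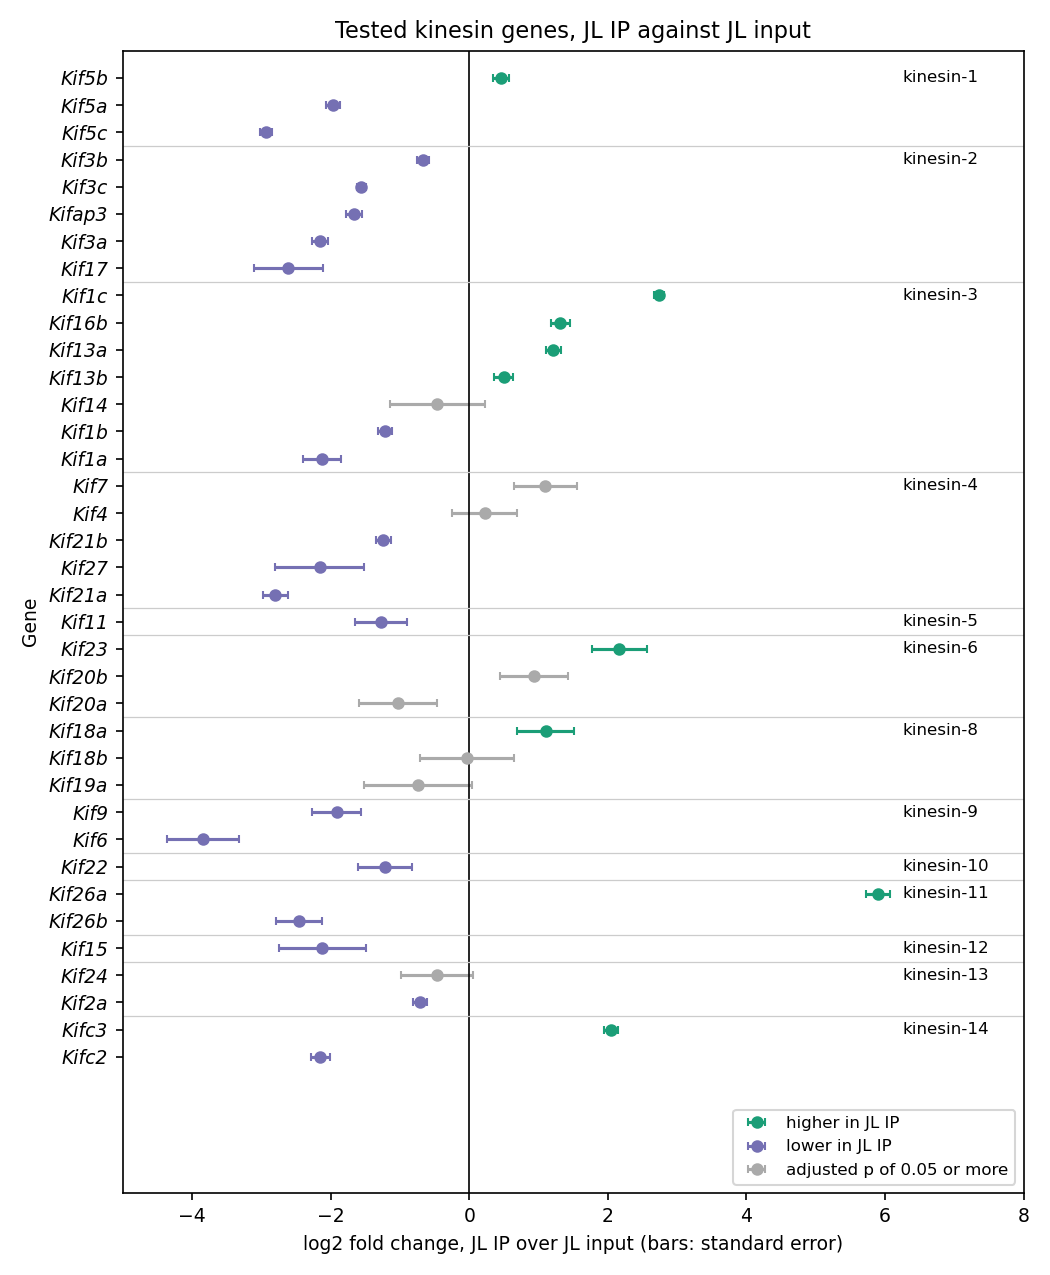
log2 fold change of JL IP over JL input (x axis) for the 37 tested kinesin genes (y axis), grouped by family; points are edgeR estimates, bars standard errors from 3 against 3 libraries, and colours the call. Kif26a stands farthest to the right at 5.90 and Kif6 farthest to the left at -3.84; kinesin-2 lies wholly below 0.

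Kinesin-1 is the main motor for long transport of mitochondria and vesicles, and its 3 heavy chains went different ways. Kif5c, a neuronal form (chromosome 2, 49619298 to 49774778 in mm10), stood at 123, 118 and 141 CPM in the JL IPs, against input levels of 1008, 937 and 968. Every JL IP was far below every input, with a log2 fold change of -2.93 ± 0.09 (adjusted p = 1.32e-08). Kif5a, the other neuronal form (chromosome 10, 127225696 to 127263348), stood at 214, 202 and 244 CPM against 948, 787 and 840, again without overlap (log2 fold change -1.97 ± 0.10, adjusted p = 2.99e-07). Kif5b, the form made in nearly all cell types, stood at 254, 263 and 200 CPM against 189, 168 and 167. All 3 JL IPs lay above the inputs, by a log2 fold change of 0.45 ± 0.11 (adjusted p = 0.00588). The call of Kif5b ended with upper quartile factors (0.20, adjusted p = 0.14) and with library size alone (0.19, adjusted p = 0.137). The 12 neuronal markers were all lower in this comparison, with a median log2 fold change of -2.53. So were 9 of 10 astrocyte, 9 of 10 oligodendrocyte and 9 of 10 microglia markers, with medians of -2.07, -2.72 and -2.38. In the astrocyte and oligodendrocyte sets 1 marker each was higher. Of 10 mural markers, 5 were lower and 2 higher. The part of these cell types in the decreases of Kif5a and Kif5c was not tested.

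The makeup of kinesin-1 shifted with these changes. Of the summed level of the 3 heavy chains per kilobase, Kif5b took 40.0, 42.0 and 31.4% in the JL IPs, 7.87, 7.97 and 7.56% in input, and 9.18, 8.65 and 7.78% in the ES IPs. The JL IPs were thus apart from both other groups, while those 2 groups overlapped. Kif5c took 22.5 ± 2.0% in JL IP against 48.5 ± 1.33% in input. The share of Kif5a was 39.7 ± 3.65% against 43.7 ± 1.33%, with overlap between the libraries. Scaled to the longest transcript, Kif5a took 36.1, 34.5 and 41.9% in JL IP against 45.8, 43.2 and 44.2% in input, without overlap. On that scale Kif5b took 42.5 ± 5.89% in JL IP and 9.43 ± 0.253% in input.

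**Figure D2:**
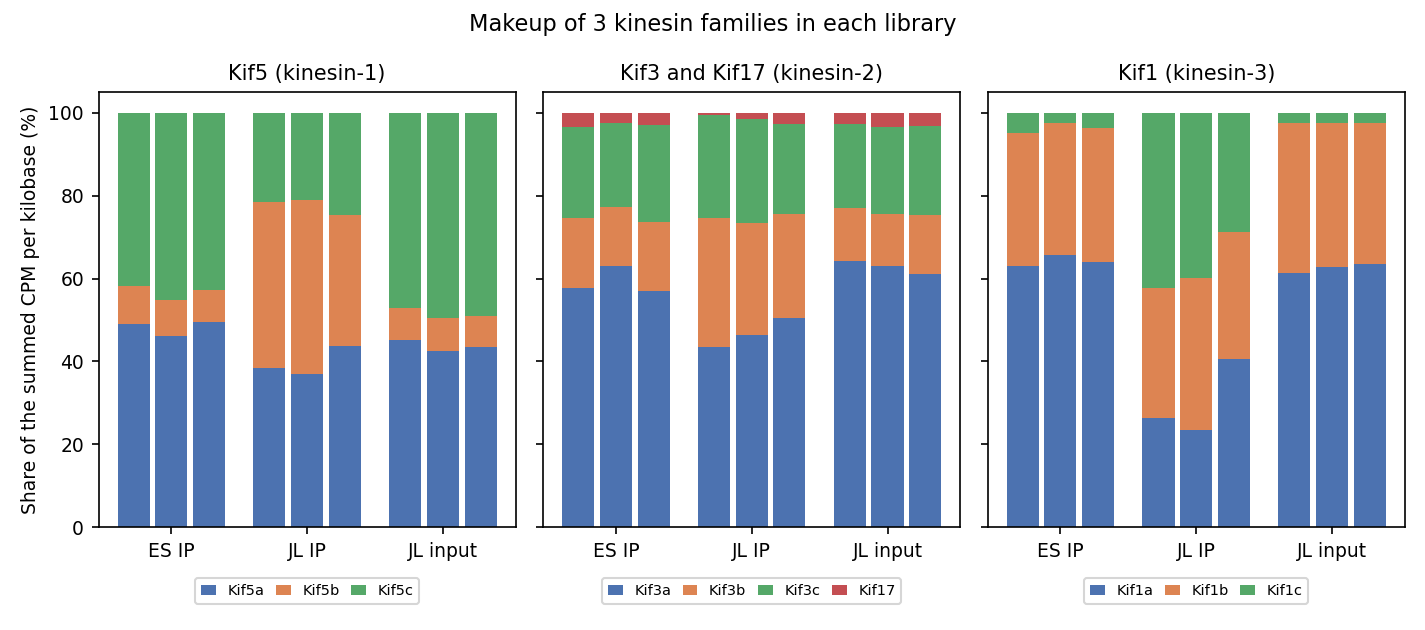
Share of the summed CPM per kilobase of exon (y axis, %) taken by each motor gene of kinesin-1, of kinesin-2 and of the Kif1 genes of kinesin-3; each bar is 1 library, 3 per group. Kif5b and Kif1c take 31.4 to 42.0% and 28.9 to 42.2% in the JL IPs, and at most 9.18% and 5.0% in the other libraries.

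All 5 kinesin-2 genes were lower in the JL IPs. Kif3a and Kif3b pair as the motor that carries parts into the cilium and cargo along axons, with Kifap3 as their cargo-binding subunit, and Kif3c is a further partner of Kif3a. Kif3a stood at 47.9, 50.7 and 65.4 CPM in the JL IPs, against input levels of 251, 243 and 233 (log2 fold change -2.15 ± 0.12, adjusted p = 4.69e-07). Its partner Kif3b fell least, from 79.1, 76.5 and 85.3 CPM in the inputs to 54.1, 46.3 and 51.4 in the JL IPs (-0.67 ± 0.09, adjusted p = 0.00016). Kif3c stood at 56.4, 56.0 and 57.9 CPM against 164, 168 and 170 (-1.56 ± 0.06). Antisense genes overlap 40.7% of the exon bases of Kif3c, and their reads cannot be told apart if counting did not use strand, which is not given. Kifap3 stood at 54.8, 72.7 and 76.5 CPM against 225, 215 and 206 (-1.66 ± 0.12). Each of these genes had all JL IPs below all inputs.

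Kif17, which carries glutamate receptor vesicles in dendrites, stood at 0.719, 2.23 and 4.55 CPM in the JL IPs, against input levels of 14, 16.4 and 15.5 (-2.61 ± 0.50, adjusted p = 0.00139). Its JL IPs differed widely among themselves, and replicate 3 had the highest value. Of the JL IPs, replicate 3 also had the highest sums of neuronal (2594 CPM against 2015 and 2054) and astrocyte markers (542 against 367 and 380). The same held for oligodendrocyte (564 against 465 and 389), mural (81.7 against 39.1 and 58.6), microglia and cell cycle markers. The endothelial sum and that of ependyma and motile cilia were highest in replicate 2. The part of these sets in the spread of Kif17 was not tested. Among the 4 motor genes of the family, Kif3a took 46.8 ± 3.48% of the summed level per kilobase in JL IP against 62.7 ± 1.55% in input, and Kif3b 27.8 ± 3.09% and 13.2 ± 0.867%.

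Kinesin-3 motors carry vesicles and endosomes, and this family held both increases and decreases. Of its 7 genes 4 were higher, 2 lower and 1 did not pass. Kif1a, the motor of synaptic vesicle precursors (chromosome 1, 93015464 to 93101951), stood at 135, 123 and 277 CPM in the JL IPs, against input levels of 802, 773 and 756. All JL IPs were below the inputs, by -2.12 ± 0.28 on the log2 scale (adjusted p = 0.000138), and replicate 3 was the highest of the JL IPs here too. The part of the marker sets in the spread of Kif1a was not tested either. Kif1b, which carries mitochondria and synaptic vesicle precursors, stood at 302, 365 and 391 CPM against 889, 809 and 765 (-1.22 ± 0.10, adjusted p = 8.72e-06).

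Kif1c, a motor of dense-core vesicles and of integrins in migrating cells (chromosome 11, 70700548 to 70731964), stood at 168, 163 and 153 CPM in the JL IPs, against input levels of 25.3, 23.5 and 23.9. The groups were far apart and narrow, a 6.67-fold increase (log2 fold change 2.74 ± 0.08, adjusted p = 1.09e-08). Of the summed level of Kif1a, Kif1b and Kif1c per kilobase, Kif1c took 42.2, 39.8 and 28.9% in the JL IPs, 2.49, 2.44 and 2.57% in input, and 5.0, 2.46 and 3.72% in the ES IPs. The motor with the lowest level of these 3 in the inputs thus overlapped with the others in the JL IPs, where Kif1b took 32.9 ± 3.43% and Kif1a 30.2 ± 9.22%. Scaled to the longest transcript, Kif1c took 30.7 ± 5.80% and Kif1b 43.1 ± 3.87%.

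The endosomal motors of kinesin-3 were higher too. Kif13a, which moves recycling endosomes and mannose 6-phosphate receptors, stood at 66.4, 68.1 and 57.6 CPM against 30.6, 26.3 and 26.2 (1.21 ± 0.11, adjusted p = 1.06e-05). Kif16b, a motor of early endosomes, stood at 28.5, 35.5 and 37.5 CPM against 14.3, 13.5 and 13 (1.32 ± 0.13, adjusted p = 2.31e-05). For both, the lowest JL IP was well above the highest input. Kif13b had 16.7 ± 0.817 CPM against 11.9 ± 1.36 (0.50 ± 0.14, adjusted p = 0.0108). Its call ended in 4 of 13 alternatives, among them upper quartile factors (adjusted p = 0.144) and the absence of input replicate 3 (adjusted p = 0.0581). Kif14, a cytokinesis motor, had under 1 CPM in every library and did not pass (adjusted p = 0.559).

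Kif26a had the largest change of the kinesin genes. It belongs to kinesin-11, whose motor domain is thought not to hydrolyse ATP, and is known for restraining growth signalling in the enteric nervous system (chromosome 12, 112146208 to 112181747). It stood at 106, 99.3 and 84.4 CPM in the JL IPs, against input levels of 1.33, 1.54 and 2.0, a 59.7-fold increase (log2 fold change 5.90 ± 0.17, adjusted p = 1.37e-08). The 12 endothelial markers ranged from 6.12 to 9.49 on the same scale, so Kif26a lay just below their range. Its paralog Kif26b went the other way, at 1.16, 1.10 and 0.607 CPM against 5.24, 5.01 and 5.59 (-2.45 ± 0.33, adjusted p = 0.000162), and all JL IPs were below all inputs.

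Kinesin-14 motors walk toward the minus end, and the 2 that passed the filter parted in the same way. Kifc3, known from adherens junctions of epithelia (chromosome 8, 95099828 to 95202812), stood at 48.3, 48.9 and 47.0 CPM in the JL IPs, against input levels of 12.5, 11.2 and 11.2 (2.05 ± 0.10, adjusted p = 2.65e-07). Kifc2, a neuronal motor, stood at 34.3, 32.1 and 47.7 CPM against 162, 172 and 171 (-2.15 ± 0.14, adjusted p = 1.58e-06). The groups did not overlap for either gene. Kifc1, of the mitotic spindle, and its near-identical relative Kifc5b had at most 18 counts in any library, and their counts are uncertain because reads can fit both, as with Kif4 and its pseudogene.

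Kinesin-4 motors of neurons were lower. Kif21a, which slows microtubule growth (chromosome 15, 90933276 to 91049948), stood at 27.0, 34.7 and 46.4 CPM in the JL IPs, against input levels of 265, 251 and 234 (-2.80 ± 0.17, adjusted p = 1.13e-06). Kif21b, of dendrites and immune cells, stood at 22.8, 27.3 and 30.3 CPM against 61.8, 62.1 and 66.1 (-1.24 ± 0.11, adjusted p = 1.27e-05). Both were apart in all libraries. Kif7, the Hedgehog pathway kinesin of the cilium tip, had 1.89 ± 0.687 CPM against 0.881 ± 0.215. All its JL IPs lay above all inputs, but it did not pass (adjusted p = 0.0548), though it did in DESeq2 (1.05, adjusted p = 0.0445) and without JL IP replicate 1 (1.36, adjusted p = 0.0121). Antisense genes overlap 20.3% of its exon bases. Kif4, a chromosome motor, had 1.16 ± 0.198 against 0.992 ± 0.318 CPM (adjusted p = 0.674).

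Kif2a, of kinesin-13, takes microtubules apart at their ends and prunes axon branches. It stood at 97.8, 123 and 109 CPM in the JL IPs, against input levels of 169, 186 and 186, a small decrease without overlap (-0.71 ± 0.09, adjusted p = 0.000154). The antisense gene Dimt1 overlaps 19.2% of its exon bases. Kif24, a centriole protein of the same family, stood at 0.548, 2.29 and 1.72 CPM against 2.24, 2.49 and 1.59 and did not pass (adjusted p = 0.434).

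Kif6 and Kif9, of kinesin-9, Kif27, of kinesin-4, and Kif19a, of kinesin-8, are known from motile cilia. Kif6, Kif9 and Kif27 were lower. Kif19a did not pass (-0.73 ± 0.78, adjusted p = 0.414), and its libraries overlapped. Without JL IP replicate 1 it was lower (-1.81, adjusted p = 0.0477). Kif6 stood at 0.137, 0.087 and 0.169 CPM in the JL IPs, 3 to 5 counts per library, and at 1.69, 2.18 and 1.85 in the inputs (-3.84 ± 0.52, adjusted p = 0.000173). Kif9, a motor of the ciliary central pair, stood at 1.20, 1.19 and 2.50 CPM against 6.32, 5.03 and 7.05 (-1.92 ± 0.35, adjusted p = 0.00116). Kif27 stood at 0.308, 1.13 and 3.44 CPM against 6.97, 7.62 and 7.11 (-2.16 ± 0.64, adjusted p = 0.0145). Its JL IPs differed widely among themselves, and its call ended without JL IP replicate 2 (adjusted p = 0.0543). Of 10 marker genes of ependyma and motile cilia, 6 were lower and 4 did not pass. They summed to between 8.49 and 12.3 CPM in the JL IPs, against 40.8 to 45.0 in the inputs, and their part in the change of Kif6, Kif9 and Kif27 was not tested.

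Motors of cell division stood at low levels and had no common direction. Kif23, which bundles microtubules in the midzone of dividing cells, stood at 3.63, 5.51 and 6.07 CPM in the JL IPs, against input levels of 1.63, 1.08 and 0.674 (2.17 ± 0.40, adjusted p = 0.0011). It was apart in all libraries and was called under all 13 alternatives. Kif11, which pushes spindle poles apart, stood at 1.16, 1.74 and 0.809 CPM against 3.18, 3.13 and 2.74 (-1.28 ± 0.37, adjusted p = 0.0133), and Kif15, which shares that role, at 0.137, 0.754 and 0.304 against 1.57, 1.64 and 2.09 (-2.12 ± 0.63, adjusted p = 0.0138). Kif22, a chromosome motor, had 1.57 ± 0.668 against 3.64 ± 0.490 CPM (adjusted p = 0.0204).

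With 1 input left out, the calls of these 3 genes could end while their log2 fold changes moved little. The call of Kif11 ended without input replicate 1 (-1.24, adjusted p = 0.0571) or 2 (-1.26, 0.0543). That of Kif15 ended without input replicate 3 (-1.99, adjusted p = 0.0626), and that of Kif22 without input replicate 2 (-1.12, adjusted p = 0.0801) or 3 (-1.2, 0.0667). Kif18a, which aligns chromosomes, had 2.77 ± 1.05 against 1.29 ± 0.215 CPM (adjusted p = 0.0371), a call that ended in 8 of 13 alternatives, among them the absence of any 1 input (0.0845 to 0.13). Kif18b, Kif20a and Kif20b did not pass (adjusted p from 0.113 to 0.972). Without JL IP replicate 1, Kif20a was lower (-1.59, adjusted p = 0.0185), and without JL IP replicate 3 Kif20b was higher (1.27, adjusted p = 0.0182). Of 12 cell cycle markers, 2 were higher, 1 was lower and 9 did not pass, with sums from 15.1 to 22.6 CPM in the JL IPs, against input levels of 14.6 to 19.2.

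The remaining 6 kinesin genes did not pass the filter on low counts. Kif2b, a testis form, had 0 counts in all 9 libraries, which allows up to 3 counts or 0.0589 to 0.103 CPM per library, for counting error only. Kif12 had 4 counts, all in input replicate 2, and Kif4-ps 1 count, in JL IP replicate 1. Kif2c, a microtubule depolymerase of the kinetochore, Kifc1 and Kifc5b had from 0 to 18 counts per library.

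**Figure D3:**
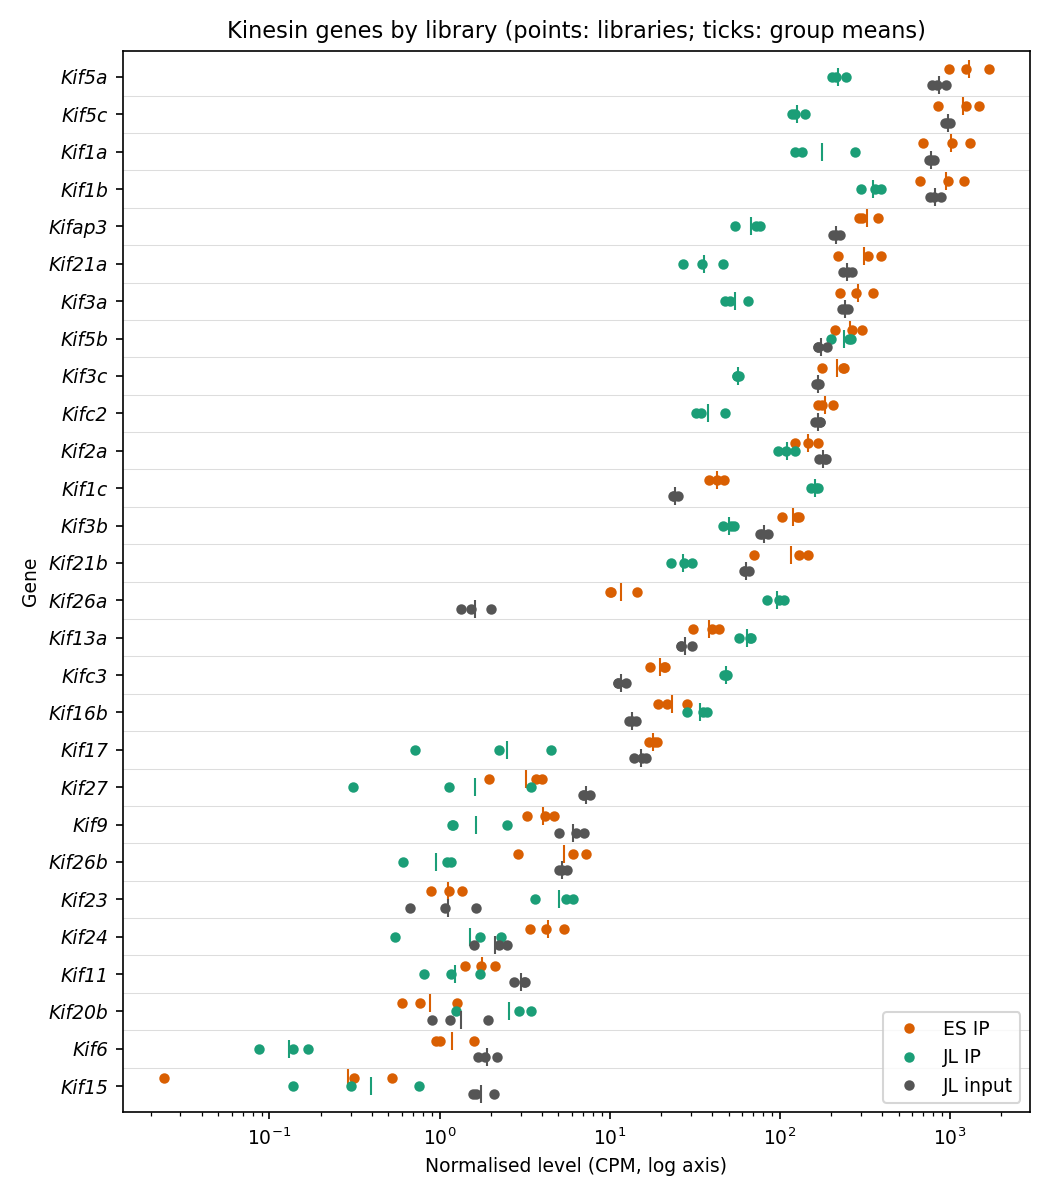
Normalised level (x axis, CPM, log axis) of 28 kinesin genes (y axis) in each library; points are libraries, 3 per group, and vertical ticks the group means. For Kif26a, Kif1c, Kifc3 and Kif13a the JL IPs lie to the right of all other libraries; for Kif5a, Kif5c, Kif1a and Kif21a they lie to the left of all others.

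In the second comparison, ES IP was set against JL IP, that is, captured RNA of the same line extracted by another person. It shares the JL IPs with the first. The lane, the investigator and the marker content differ between the groups together and cannot be told apart, nor can the Y-linked counts of the mice. Tests of 36 kinesin genes found 17 higher in the ES IPs, 7 lower and 12 that did not pass, where 29.7% of all 16212 genes were higher and 28.2% lower. The median log2 fold change was 0.67 for kinesin genes and 0.03 for all. All ES IPs lay above all JL IPs for 17 kinesin genes and below for 6, with 32.0% and 33.9% over all genes. At 2-fold or more, 16 were higher (22.8% of all genes) and 5 lower (20.1%).

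The cargo motors of neurons were higher in the ES IPs. Kif5c stood at 855, 1242 and 1492 CPM in the ES IPs, against 118 to 141 in the JL IPs (log2 fold change 3.32 ± 0.24, adjusted p = 1.3e-06). Kif21a stood at 220, 391 and 330 CPM against 27.0 to 46.4 (3.21 ± 0.27, adjusted p = 3.24e-06). Kif17 stood at 17.0, 18.3 and 18.9 CPM against 0.719 to 4.55 (2.93 ± 0.49, adjusted p = 0.000383). The ES IPs of Kif5c and Kif21a spanned the input levels, and those of Kif17 lay above them.

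Kif5a reached 984, 1237 and 1688 CPM in the ES IPs against 202 to 244 (2.65 ± 0.23, adjusted p = 3.51e-06), and Kif1a 694, 1321 and 1034 against 123 to 277 (2.59 ± 0.34, adjusted p = 7.05e-05). Kif1b stood at 666, 1206 and 982 CPM (1.51 ± 0.23, adjusted p = 0.000207). ES replicate 1 was the lowest ES IP for Kif5a, Kif5c, Kif1a, Kif1b and Kif21a alike. All 5 kinesin-2 genes were higher, from Kif3b at 104, 126 and 130 CPM (1.33 ± 0.17) to Kif17, with Kif3a at 225, 356 and 282 CPM (2.48 ± 0.22), Kif3c at 178, 235 and 238 (2.02 ± 0.18) and Kifap3 at 305, 380 and 291 (2.34 ± 0.20). Kifc2 stood at 168, 178 and 207 CPM (2.36 ± 0.20) and Kif21b at 71.0, 130 and 147 (2.20 ± 0.27). In each case every ES IP was above every JL IP. The 12 neuronal markers were all higher in the ES IPs, by a median of 2.92 on the log2 scale. So were 9 of 10 oligodendrocyte, 7 of 10 astrocyte and 7 of 10 microglia markers, with medians of 1.47, 1.62 and 1.66. The part of these cell types in the kinesin increases was not tested.

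Low-level genes, and Kif2a at a higher level, followed in part. Kif6 stood at 1.01, 1.60 and 0.949 CPM in the ES IPs (3.23 ± 0.70, adjusted p = 0.00229) and Kif26b at 2.88, 6.08 and 7.25 (2.58 ± 0.47, adjusted p = 0.000663), both above all JL IPs. Kif9 stood at 4.72, 4.2 and 3.25 CPM (1.40 ± 0.42, adjusted p = 0.0142), a call that ended without ES replicate 2 (adjusted p = 0.051). Kif24 stood at 3.40, 4.24 and 5.40 CPM (1.59 ± 0.50, adjusted p = 0.0178), a call that ended without ES replicate 3 (adjusted p = 0.0716). Kif2a stood at 124, 167 and 146 CPM (0.49 ± 0.18, adjusted p = 0.0346). Its call ended without ES replicate 2 (adjusted p = 0.133) or 3 (0.068) and without JL IP replicate 1 (0.138) or 3 (0.0898). Kif27 stood at 1.94, 4.02 and 3.71 CPM and did not pass (adjusted p = 0.205), but did without JL IP replicate 3 (2.22, adjusted p = 0.0144).

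The motors that were higher in the JL IPs than in the inputs were mostly lower in the ES IPs than in the JL IPs. Kif26a stood at 14.6, 10.3 and 10.01 CPM in the ES IPs against 84.4 to 106 in the JL IPs (log2 fold change -2.98 ± 0.21, adjusted p = 1.19e-06). Kif1c stood at 43.0, 38.6 and 46.8 CPM against 153 to 168 (-1.83 ± 0.16, adjusted p = 3.93e-06). Kifc3 stood at 20.9, 21.3 and 17.3 CPM against 47.0 to 48.9 (-1.20 ± 0.17, adjusted p = 0.000127). None of the 3 overlapped, and each had its ES IPs above the inputs.

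Kif23 fell to 0.887, 1.36 and 1.13 CPM in the ES IPs (-2.09 ± 0.39, adjusted p = 0.000825), within the range of the inputs. Kif13a stood at 30.8, 39.8 and 43.9 CPM (-0.66 ± 0.19, adjusted p = 0.0107) and Kif13b at 8.22 ± 2.46 (-0.94 ± 0.25, adjusted p = 0.00758). Kif20b, a cytokinesis motor, stood at 0.599, 0.765 and 1.27 CPM against 2.94, 3.45 and 1.25 in the JL IPs (-1.45 ± 0.55, adjusted p = 0.0417). The groups overlapped for Kif20b, and its call ended in 6 of 13 alternatives, among them library size alone (adjusted p = 0.0505) and the absence of ES replicate 1 (0.109) or 2 (0.126) or JL IP replicate 1 (0.085) or 2 (0.134). Kif16b, at 19.3, 21.8 and 28.7 CPM, did not pass (-0.46 ± 0.21, adjusted p = 0.0862), though it did without ES replicate 3 (-0.64, adjusted p = 0.04) and with all 9 libraries in 1 fit (-0.54, adjusted p = 0.018).

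Kif5b did not separate the 2 sets of IPs. It stood at 210, 265 and 303 CPM in the ES IPs and 200 to 263 in the JL IPs (0.20 ± 0.19, adjusted p = 0.393), and the libraries overlapped. A p above the threshold does not show equal levels. The ES IPs of Kif5b were also above all inputs (0.57 ± 0.16, adjusted p = 0.0164), a call that ended with upper quartile factors (adjusted p = 0.0631) and without input replicate 2 (0.0736) or 3 (0.077).

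In the third, ES IP was set against JL input, which shares its libraries with the other 2 comparisons and has no input by the same investigator. Tests of 37 kinesin genes found 11 higher in the ES IPs, 4 lower and 22 that did not pass, where 26.9% of all 17477 genes were higher and 25.3% lower. The median log2 fold change was 0.24 for kinesin genes and 0.00 for all. All ES IPs lay above all inputs for 14 and below for 7, with 32.0% and 32.3% over all genes. Higher calls made up 51.5% of all calls, and 40.7% with upper quartile factors, which moved the median of all genes to -0.15. At 2-fold or more, 2 kinesin genes were higher (12.1% of all genes) and 2 lower (14.1%). Without ES replicate 1 the higher count was 18, and the genes that then passed included Kif1a (0.61), Kif21a (0.54), Kif5c (0.51), Kif1b (0.43) and Kif3a (0.41). Without input replicate 2 or 3 it was 7. The lower count was 2 without input replicate 1, 1 with all 9 libraries in 1 fit, and 8 with upper quartile factors or library size alone.

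Kif26a had the largest increase here as well (2.83 ± 0.23, adjusted p = 4.67e-05). Kif1c (0.82 ± 0.12, adjusted p = 0.000807), Kif16b (0.78 ± 0.17, adjusted p = 0.00542), Kifc3 (0.76 ± 0.13, adjusted p = 0.00197) and 2 kinesin-2 genes, Kifap3 (0.59 ± 0.14, adjusted p = 0.00754) and Kif3b (0.58 ± 0.13, adjusted p = 0.00628), were higher under all 13 alternatives. Kif24 (1.05 ± 0.26) was higher in 12 of them. Kif21b was higher (0.88 ± 0.24, adjusted p = 0.0168), but not without ES replicate 2 (adjusted p = 0.0524) or without any 1 of the inputs (0.0509 to 0.0611). Kif5a (0.60 ± 0.21, adjusted p = 0.0397) and Kif13a (0.47 ± 0.16, adjusted p = 0.036) lost their calls in 8 of 13 alternatives each, among them the absence of any 1 input and of ES replicate 2 or 3.

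The 4 decreases were in genes of low level. Kif15 stood at 0.024, 0.525 and 0.316 CPM in the ES IPs against 1.57 to 2.09 in the inputs (-2.58 ± 0.64, adjusted p = 0.00986) and was called under all 13 alternatives. Its ES IPs held only 1, 24 and 14 counts. Kif27 (-1.16 ± 0.26, adjusted p = 0.00674) lost its call with all 9 libraries in 1 fit (adjusted p = 0.115). Kif11, at 1.41, 2.12 and 1.76 CPM (-0.77 ± 0.23, adjusted p = 0.0202), lost it there (0.097) and without input replicate 1 (0.0751) or 2 (0.0769). Kif9 (-0.60 ± 0.20, adjusted p = 0.0372) lost it in 6 alternatives, among them the absence of ES replicate 2 (0.0797) or 3 (0.105) and of input replicate 1 (0.101) or 3 (0.14). Beside them, the ependymal and cilia markers summed to between 24.5 and 33.2 CPM in ES IP, against 40.8 to 45.0 in input. Of 9 tested, 3 were lower and 6 did not pass. The cell cycle markers summed to between 10.5 and 17.6 CPM, against 14.6 to 19.2. Of 11 tested, 1 was higher, 3 were lower and 7 did not pass, where 25.3% of all genes were lower. The part of either set in the 4 decreases was not tested.

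Kinesins work with light chains, cargo adaptors and regulators, and a list of 33 such genes was examined beside them. Of 30 tested for JL IP against input, 4 were higher, 22 lower and 4 did not pass, and the log2 fold changes had a median of -1.26. Over all genes, 36.7% were higher and 37.4% lower. The light chains of kinesin-1, which join heavy chains to cargo, are named in full here because of the Kif5 results, after their values were seen. Klc1 stood at 181 ± 17.2 CPM in the JL IPs against 358 ± 8.19 in the inputs (-0.98 ± 0.08), and Klc2 at 40.6 ± 5.20 against 80.9 ± 1.99 (-0.99 ± 0.10). Klc4 was higher, at 10.1 ± 0.587 against 5.83 ± 0.456 CPM (0.79 ± 0.17), and Klc3 did not pass the filter.

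The gene of the partner list with the highest mean in the inputs was Clstn1, a calsyntenin that binds light chains, at 135 ± 22.3 against 369 ± 10.4 CPM (-1.45 ± 0.11). The largest increase and the largest decrease of the list were those of 2 related microtubule proteins that recruit kinesin-1, Map7d1 (1.61 ± 0.10) and Map7d2 (-3.24 ± 0.09). The mitochondrial adaptors Trak1 (-0.08 ± 0.07, adjusted p = 0.375) and Trak2 (-0.17 ± 0.07, adjusted p = 0.0412), also named after their values were seen, stood near 0. In the ES IPs against the JL IPs 23 partner genes were higher and 3 lower of 30 (29.7% and 28.2% over all genes), from the scaffold Mapk8ip2 (4.12 ± 0.92) to the liprin Ppfia1 (-1.05 ± 0.18), with Clstn1 at 1.88 ± 0.18. Mapk8ip2 stood at 22.1, 268 and 24.2 CPM in the ES IPs, and without ES replicate 2 its log2 fold change was 1.95 (adjusted p = 0.00288). Against the inputs, 12 of 31 were higher in the ES IPs (26.9% over all genes) and 19 did not pass, and the largest change that passed was that of Klc4 (1.37 ± 0.23).

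Dynein moves cargo the other way along microtubules, toward the minus end, with dynactin and adaptors as helpers. Of 30 such genes tested for JL IP against input, 10 were higher, 10 lower and 10 did not pass, and the median log2 fold change was -0.01. These shares lie near those over all genes (36.7% higher and 37.4% lower). Nde1, a dynein regulator also needed in division, rose most, from 10.1 ± 1.07 to 79.2 ± 6.43 CPM (2.97 ± 0.12), and Dynlrb2, a light chain of ciliary dyneins, fell most (-4.04 ± 0.90). Dynlrb2 rested on few reads, with 7, 2 and 0 counts in the JL IPs against 102, 92 and 52 in the inputs. Pafah1b1, the Lis1 regulator and the gene with the highest mean in the inputs, was lower (-0.81 ± 0.06). In the ES IPs against the JL IPs 12 were higher and 9 lower of 30 (29.7% and 28.2% over all genes), from Dync1i1, the neuronal intermediate chain (3.13 ± 0.22), to Dynlt1b (-2.13 ± 0.64), whose reads are uncertain because near-identical copies exist and whose call ended without ES replicate 2 (adjusted p = 0.0692) or 3 (0.0813). Pafah1b1 was higher there (1.03 ± 0.16). Against the inputs 9 were higher and 5 lower of 30 in the ES IPs (26.9% and 25.3% over all genes), with 2 lower without input replicate 2 or 3. The changes ran from Dynll2 (1.26 ± 0.13) to Dynlrb2 (-1.59 ± 0.39), whose call ended with all 9 libraries in 1 fit (adjusted p = 0.0864), and Pafah1b1 did not pass (0.14 ± 0.13, adjusted p = 0.38).

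**Figure D4:**
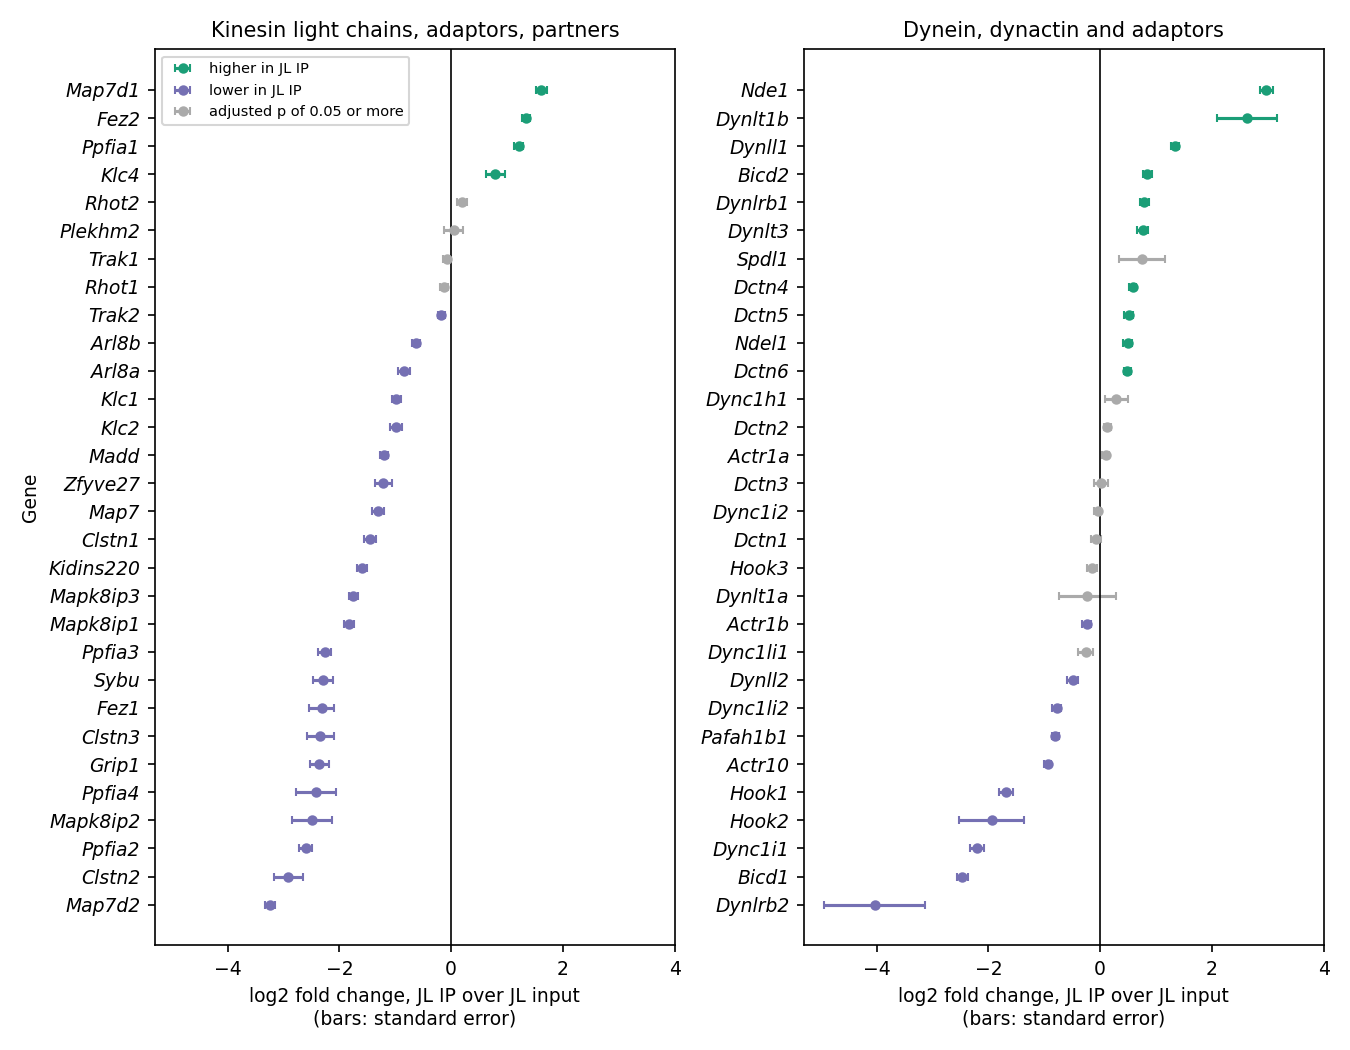
log2 fold change of JL IP over JL input (x axis) for 30 kinesin partner genes (left) and 30 genes of dynein, dynactin and their adaptors (right); points are edgeR estimates, bars standard errors from 3 against 3 libraries, colours the call. On the left 22 of 30 are lower; on the right 10 are higher and 10 lower.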

How the data were processed

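The authors deposited 1 table of raw read counts per gene for each of 9 libraries. STAR 2.0.0e, HTSeq and mm10 are named in the submitters' processing notes; annotation and strand setting are not given there. Rows that name no gene were left out: reads in no feature were 17.3% to 24.4%, and ambiguous reads 2.04% to 2.53% in the IPs but 10.3% to 11.3% in the inputs, which lowers counts of genes that overlap others.

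From these counts, genes passing filterByExpr were tested with edgeR 4.0.16 (R 4.3.3; TMM factors, quasi-likelihood test, Benjamini-Hochberg adjustment over all tested genes, threshold 0.05), using only the 2 groups compared. Each standard error is the size of the log2 fold change over the root of its F statistic. CPM used TMM factors over all 9 libraries. CPM per kilobase used the union of exons of GENCODE M21 (mm10), where all 43 genes matched. The code was tested on simulated counts.

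The alternatives were median-ratio and upper quartile factors, library size alone, no filter on low counts, DESeq2 1.42.0, all 9 libraries in 1 fit, a replicate block, leaving out each replicate, and length by the longest transcript. Values per library are given for genes with a mean of at least 20 CPM in a group, the 5 largest and 5 smallest changes per comparison that passed with at least 1 CPM, and the Kif1, Kif3 and Kif5 genes; a few others are given in full beside their family. Partner genes named are those with the highest CPM and the largest and smallest change that passed. The members and all lists were chosen with earlier results of these data known.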

Additional observations from a re-analysis of the deposited data

How the results depend on the processing

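The kinesin counts for JL IP against JL input and for ES IP against JL IP stayed within 1.5 times under all 13 alternatives. Of 29 kinesin genes called in the first, 22 were called under every alternative, of 24 in the second 20, and of 15 in ES IP against JL input 7. The last count moved most: its 4 lower genes became 8 with upper quartile factors, 8 with library size alone and 1 with all 9 libraries in 1 fit. Leaving out 1 replicate gave 7 to 18 higher and 2 to 6 lower genes, with 18 higher without ES replicate 1, 7 without input replicate 2 or 3, and 2 lower without input replicate 1. The causes were not tested.

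Scaling moved the median log2 fold change of all genes in JL IP against input from -0.09 to -0.34 (upper quartile factors) and -0.35 (library size alone), where 6 kinesin genes were higher and 20 lower in each. In ES IP against input it moved from 0.00 to -0.15 and -0.11. Without the filter, more genes of low counts were tested, and the medians were -0.52, 0.21 and -0.13 in the 3 comparisons.

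Same-numbered JL IPs and inputs deviated together with correlations of 0.14, 0.06 and 0.09, not all over 0.1, though each library correlated best with its own number; ES IP and JL IP gave 0.08, -0.04 and 0.04, and ES IP and input 0.04, 0.02 and 0.03. With the replicate number as a block, 8 kinesin genes were higher and 20 lower in JL IP against input, 18 and 6 in ES IP against JL IP, and 9 and 4 in ES IP against input. The block ended the calls of Kif18a (adjusted p = 0.0743) in the first, Kif20b (0.0841) in the second, and Kif13a (0.0592), Kif5a (0.0556) and Kif9 (0.0564) in the third, and Kif27 (1.53, 0.0361) passed in the second and Kif22 (-0.68, 0.0492) in the third.

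Among the named genes, directions turned only for those that did not pass. Kif4, Kif7, Kif14, Kif18b, Kif19a and Kif20a, which passed in no comparison, also changed sign under some alternatives. For ES IP against JL IP, Kif15 (-0.38) was at 0.16 without ES replicate 1 and 0.47 without JL IP replicate 2, with a range of -1.11 to 0.47 over the libraries left out. For ES IP against input, Kif26b (0.04) was at -0.11 with upper quartile factors, -0.077 with library size alone, -0.053 with the replicate block, -0.05 without ES replicate 2 and -0.22 without ES replicate 3. Kifc2 (0.13) was at -0.0225 and Pafah1b1 (0.14) at -0.0081 with upper quartile factors. Kif23 (-0.0046) was at 0.0015 without the filter, 0.0595 with the replicate block, 0.15 without ES replicate 1, 0.0041 without ES replicate 3 and 0.35 without input replicate 1, with a range of -0.27 to 0.35 over the libraries left out. At the depth of these libraries, 3 counts correspond to 0.0589 to 0.103 CPM. Levels of Kif6, Kif15 and Kif27 in single JL IPs, and of Kif15 in ES replicate 1, therefore rest on few reads.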
